A study of Rattus norvegicus with 9 samples.

Results

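The chemokines and their receptors were described across 9 RNA libraries of adipose tissue from male Wistar rats. They were taken by a rule on names, which was set with earlier results of these data known. The rule took every gene whose symbol starts with Ccl, Ccr, Cxcl, Cxcr, Xcl, Xcr, Cx3cl, Cx3cr or Ackr followed by a number. This gave 55 of the 32883 genes listed, 34 ligands and 21 receptors. The study divided its rats at random into a healthy, a diabetic and a black bean group, so genotype did not differ between them by design. Wild-type rats of the healthy group (HE) received a standard diet and an injection of citrate buffer. Rats of the diabetic group (DB) received a high fat diet, a single low dose of streptozotocin (25 mg/kg), which damages the insulin-producing beta cells, and water by gavage. Rats of the black bean group (BB) received the same diet and streptozotocin and a black bean extract rich in anthocyanins (260 mg/kg/day), and all labels give day 31. Each group had 3 libraries, HE replicates 2, 3 and 4, DB replicates 1, 2 and 6, and BB replicates 1, 4 and 8. HE and DB rats differed in both diet and streptozotocin, whose parts cannot be told apart.

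Chemokines are small secreted proteins that guide leukocytes along a gradient by binding receptors that signal through G proteins. They are named after the spacing of their first cysteines (C, CC, CXC and CX3C). In fat tissue, ligands such as Ccl2 are known for drawing monocytes into the expanding fat of obese animals, where these become macrophages. The atypical receptors (Ackr) bind chemokines without the usual G protein signal and remove them.

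What was deposited for each gene is its read number over a size factor of the library, called its value here. No correction for gene length was made, and where a level is set beside those of other genes, the part of length was not tested. Depth was 2771967 to 3542749 reads in 8 libraries, where 1 read is worth a value of 0.672 to 0.913. BB replicate 8 stood apart, with 12267084 reads of which the top 10 genes held 76.5% (10.2% to 19.2% elsewhere), no reads for 47.4% of the genes, and a value of 14.6 for 1 read. It was therefore left out of the comparisons and is shown apart, so that BB had 2 libraries in them. Apart from the rat numbers in the sample titles, nothing states that each library was a different animal, and the p-values reflect variation among libraries that may be technical in part or whole. The letter that ends the data columns (H) differs from that of the sample titles (TA), and neither is explained in the sources used here. Of the adipocyte markers, Adipoq (adiponectin) was at the 71.0th and Plin1 (perilipin) at the 82.2nd percentile of all genes by mean value. The liver gene Alb (albumin) was at the 98.6th and the macrophage gene Cd68 at the 99.4th. The lists spread widely, for adipocytes from 27.9 (Fabp4) to 94.6 (Lep), for hepatocytes from 53.5 (Apoa1) to Alb, and for macrophages from 46.5 (Cd14) to Cd68. The labelled tissue was thus not set apart by its markers.

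Every one of the 55 genes had reads in all 8 libraries, with a fewest of 4 reads. Their mean values ran from 6.39 (Ccl17) to 316 (Ccr6) with a median of 31.2, against a median of 30.8 for all genes. As a background, the 1129 olfactory receptor genes, which serve odour detection in the nose, had a median of 17.7 and a 95th percentile of 70.5. This was a background of genes not known as products of fat, and 42 of the 55 genes lay above its median and 9 above its 95th percentile. Those 9 were the ligands Cxcl12 and Cxcl13, the receptors Ccr6, Ccr9, Cxcr1, Cxcr2, Cxcr5 and Xcr1, and the atypical receptor Ackr4. The 13 genes at or below the median were all ligands and held Ccl2, Ccl4, Ccl5, Ccl7 and Ccl20, well-known inflammatory chemokines, beside Ccl1, Ccl17, Ccl19, Ccl21, Ccl26, Ccl27, Cxcl1 and Xcl1. By its median over the genes, the spread within groups was close to that of counting alone, with a coefficient of variation of 17.4% in HE and 15.9% in DB, against 15.1% and 16.4% from read counts. Single genes departed from it, with Ccr6 in DB (33.1% against 4.98%) and Cx3cr1 in HE (34.4% against 14.7%) above. Ccr9 was above in HE (15.3% against 5.63%) and below in DB (1.3% against 6.12%).

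**Figure D1:**
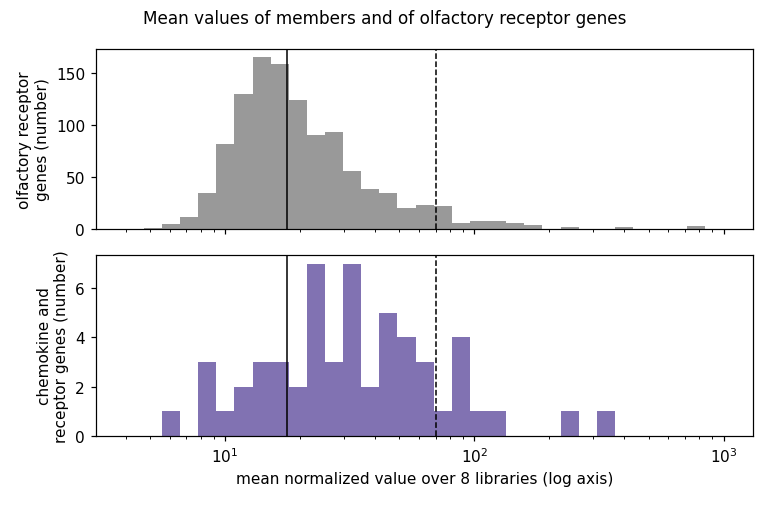
Mean normalized values over 8 libraries (log axis, BB replicate 8 left out) of 1129 olfactory receptor genes in the upper panel and of the 55 chemokine and receptor genes in the lower panel, as numbers of genes. The solid line marks the olfactory receptor median (17.7) and the dashed line their 95th percentile (70.5), above which 9 chemokine and receptor genes lay.

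The first question was how diabetic rats differed from healthy ones. One ligand, Cxcl13, rose in DB libraries, and the other 54 genes did not pass the test. In limma on log2(value + 1), fitted over 32371 genes with Benjamini-Hochberg adjustment at 0.05, this was 1 of 55 genes (1.82%), beside 0.677% of all genes tested. At an unadjusted p under 0.05 there were 9 of the 55 (16.4%, beside 9.43% of all genes), 8 of them higher and 1 lower, beside 4.41% and 5.02% of all genes. Values of 11 of the 55 genes (20%) did not overlap between the groups, beside 14.1% of all genes, with 8 higher (6.82% of all genes) and 3 lower (7.25% of all genes). The median log2 fold change of the 55 genes was 0.02, beside 0.005 for all genes, and 28 of the 55 were above 0 (50.9%, the same share as of all genes). On the recovered reads edgeR called 1 of the 55, again Cxcl13, and 0.746% of all genes. Summed over the 34 ligands, values were 941 to 1017 in HE, 1047 to 1078 in DB and 1014 to 1030 in BB replicates 1 and 4. This sum weighs genes by their values and holds Cxcl13 (mean 59.5 in HE and 100 in DB) and Ccl6 (52.7 and 76.7). By log2 fold change from HE to DB, 20 of the 34 ligands were above 0 and 14 below, with a median of 0.07. Summed over the 21 receptors they overlapped, with 1447 to 1607 in HE, 1419 to 1654 in DB and 1398 to 1547 in BB.

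Cxcl13 is the ligand of Cxcr5 and draws B cells into the follicles of lymphoid tissue. Its values were 50.4, 64.3 and 64.0 in HE replicates 2, 3 and 4, 117, 93.9 and 90.4 in DB replicates 1, 2 and 6, and 70.1 and 60.4 in BB replicates 1 and 4. All 3 DB libraries lay above every HE and BB library, and DB replicate 1 was the highest. DB was 1.67-fold above HE, or 0.74 on the log2 scale with an SE of 0.15 (limma adjusted p = 0.0207, edgeR adjusted p = 0.0162). BB was below DB at −0.61 on the log2 scale (SE 0.16, unadjusted p = 0.00147), which did not pass adjustment (adjusted p = 0.943 by limma). Against HE, BB stood at 0.13 (SE 0.16, adjusted p = 0.938 by limma). The DB call was lost when some single libraries were left out: limma gave an adjusted p of 0.108 without HE replicate 2, 0.0735 without HE replicate 4, 0.146 without DB replicate 1 and 0.0526 without DB replicate 6, with log2 fold changes of 0.63, 0.80, 0.63 and 0.81. It was kept in limma without HE replicate 3 (0.80, adjusted p = 0.0127) and without DB replicate 2 (0.79, adjusted p = 0.0284). With all 9 libraries in the fit limma gave an adjusted p of 1, and a linear model per gene without moderation gave 0.374.

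Cxcr5, the receptor of Cxcl13 on B cells and follicular helper T cells, had 73.9, 84.5 and 84.3 in HE, 83.1, 89.1 and 103 in DB, and 90.3 and 87.0 in BB. DB overlapped with both other groups, while both BB libraries lay above the HE libraries, and the log2 fold change from HE to DB was 0.18 (SE 0.13, adjusted p = 0.746 by limma). Markers of B cells (5 genes, among them Cd79b) summed to 298 to 311 in HE, 294 to 311 in DB and 286 to 294 in BB, with 0 of 5 called. Markers of lymph node stroma and lymphatic vessels (4 genes) summed to 306 to 326, 318 to 348 and 319 to 344, with 0 of 4 called. Markers of hepatocytes (8 genes) did move between the groups, summing to 1555 to 1966 in HE, 1214 to 1228 in DB and 1542 to 1619 in BB. Of these, Alb fell by 1.12 (adjusted p = 0.000145) and Tf (transferrin) fell by 0.49 (adjusted p = 0.0363) on the log2 scale in DB against HE by limma. The other 6 did not pass and differed in sign, with Cyp2e1 at 0.46 (adjusted p = 0.266 by limma), Ttr at −0.63 (adjusted p = 0.172 by limma), and Apob (−0.03) and Serpina1 (−0.05) near 0. The part of such other tissue in the Cxcl13 result was not tested. In bulk tissue, fewer cells of a type and less RNA per cell cannot be told apart.

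**Figure D2:**
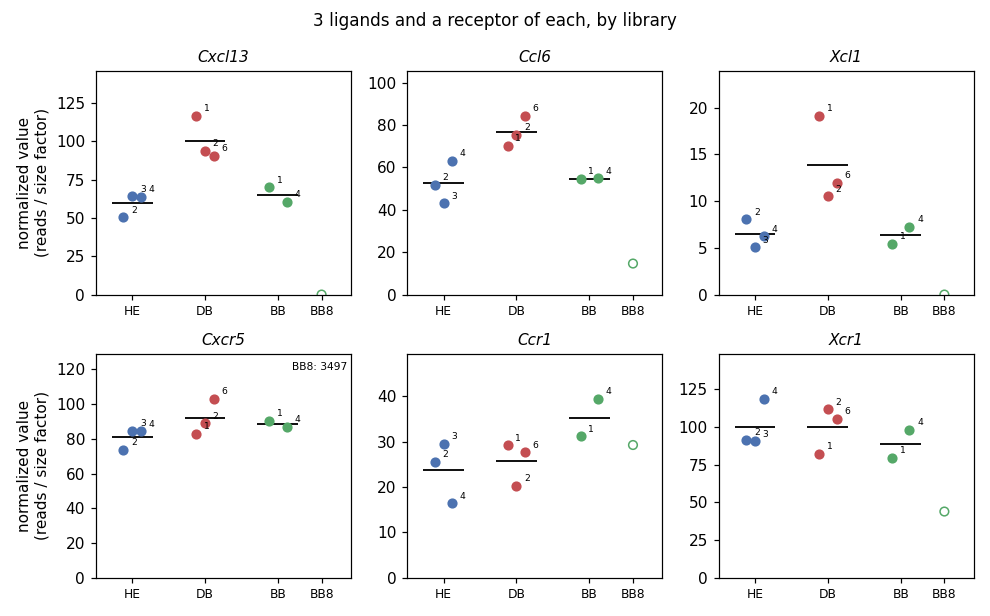
Normalized values (reads divided by size factor) of Cxcl13, Ccl6 and Xcl1 in the upper row and of a receptor of each, Cxcr5, Ccr1 and Xcr1, in the lower row. Each point is 1 library with its replicate number, bars are group means without BB replicate 8, and the open circle is BB replicate 8 (3497 for Cxcr5, beyond the axis). The 3 DB libraries lay above all other libraries for the ligands, while DB overlapped with HE for all 3 receptors.

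The ligands with the next smallest p were Ccl6 and Xcl1. Ccl6 is a CC chemokine of rodents that acts through Ccr1 in mouse, and its values were 51.7, 43.1 and 63.2 in HE, 70.3, 75.3 and 84.5 in DB, and 54.5 and 54.8 in BB. DB libraries lay above all others, by 0.55 from HE on the log2 scale (SE 0.15, adjusted p = 0.139 by limma) and of −0.48 from DB to BB (SE 0.17, adjusted p = 0.954 by limma). Xcl1 (lymphotactin), which activated T cells and natural killer cells release, had 8.06, 5.07 and 6.24 in HE, 19.2, 10.5 and 11.96 in DB, and 5.45 and 7.25 in BB. It rested on 6 to 21 reads per library. DB libraries lay above all others, while HE and BB overlapped, and the log2 fold changes of 0.97 from HE to DB (SE 0.34, adjusted p = 0.288) and −0.99 from DB to BB (SE 0.38, adjusted p = 0.959) did not pass limma's test. The natural killer cell markers (6 genes) summed to 425 to 460 in HE, 309 to 395 in DB and 348 to 364 in BB. Klrk1 alone was called there, lower in DB against HE at −1.58 (adjusted p = 4.5e-05 by limma). Prf1 (0.30), Gzmb (0.18) and Klrd1 (0.12) had values above 0. Lower in DB beside Klrk1 were Ncr1 (mean 99.6 in HE and 78.1 in DB) and Nkg7 (22.3 and 18.8). The part of such cells was not tested.

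The receptors of these ligands did not pass the test either. Ccr1 had 25.5, 29.6 and 16.4 in HE, 29.2, 20.2 and 27.6 in DB, and 31.1 and 39.5 in BB. Both BB libraries lay above all others, and with 0.58 (SE 0.26, unadjusted p = 0.0402, adjusted p = 0.714 by limma) Ccr1 had the smallest p of the 55 genes between BB and HE. Xcr1, which in mouse marks the dendritic cells that cross-present antigen, had 91.3, 90.5 and 119 in HE, 82.2, 112 and 105 in DB, and 79.4 and 98.2 in BB, so that its groups overlapped. The dendritic cell markers (5 genes) summed to 343 to 466 in HE, 441 to 552 in DB and 370 to 404 in BB. Of these Clec9a, a receptor of the same dendritic cells, had 0.63 from HE to DB (SE 0.19, adjusted p = 0.189 by limma), and its part in the Xcl1 values was not tested.

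The window of 250 bases before the start of transcription was read for Cxcl13 and Ccl6, which had the smallest p-values, and for Cxcl2, whose value in BB replicate 8 is given further on. The sequences are from RefSeq (GRCr8, all on the minus strand) at chr14:13917921-13918170, chr10:68883367-68883616 and chr14:17467256-17467505. Capitals mark TATAAA, the core of a TATA box, in Cxcl13 and Ccl6, and GGG, any 2 bases and TTTCC, a form of the site of the inflammatory factor NF-kB, in Cxcl2.
Cxcl13: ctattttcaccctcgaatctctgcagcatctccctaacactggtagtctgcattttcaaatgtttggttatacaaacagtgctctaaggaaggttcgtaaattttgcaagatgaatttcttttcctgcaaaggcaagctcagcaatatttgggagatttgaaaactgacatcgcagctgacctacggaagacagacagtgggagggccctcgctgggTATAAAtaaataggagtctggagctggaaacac
Ccl6: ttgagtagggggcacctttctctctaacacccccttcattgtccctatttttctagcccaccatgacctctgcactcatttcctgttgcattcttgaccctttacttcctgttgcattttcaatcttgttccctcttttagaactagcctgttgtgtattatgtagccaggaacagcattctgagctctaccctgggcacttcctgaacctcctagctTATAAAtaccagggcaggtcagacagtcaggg
Cxcl2: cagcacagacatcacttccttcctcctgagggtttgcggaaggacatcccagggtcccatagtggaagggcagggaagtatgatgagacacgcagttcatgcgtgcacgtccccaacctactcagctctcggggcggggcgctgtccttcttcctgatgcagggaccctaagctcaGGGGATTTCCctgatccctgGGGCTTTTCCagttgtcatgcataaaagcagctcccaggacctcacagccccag
TATAAA starts 33 bases before the start in Cxcl13 and 32 bases before it in Ccl6. On both strands it was found in 12 of the 42 genes matched to a promoter (28.6%), beside 12.9% of 33469 promoters. The NF-kB form was found on either strand in 6 of 42 (14.3%), namely Ccl9, Ccl20, Ccr3, Cxcl1, Cxcl2 and Cxcl6, beside 1.3% of all promoters. For both motifs the 42 were counted by gene, with a match in any promoter of the gene, and the background by promoter. The shares are thus not of the same unit. The motifs do not overlap each other, and a match describes letters and not a site in use. The window of Xcl1 held neither.

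The remaining ligands were described by role. Of the 14 inflammatory CC ligands, 0 passed limma's test in any comparison (at an unadjusted p under 0.05, 2 were higher from HE to DB, beside 4.41% of all genes, and 1 lower from DB to BB, beside 2.84%), and the median log2 fold change from HE to DB was 0.02 with a range of −0.57 (Ccl20) to 0.55 (Ccl4). Ccl4, a macrophage inflammatory protein, had 14.1, 15.2 and 11.7 in HE, 19.2, 21.9 and 20.2 in DB, and 17.9 and 16.1 in BB. The DB libraries lay above the rest, by 0.55 from HE on the log2 scale (SE 0.24, adjusted p = 0.475 by limma). Ccl2, the monocyte attractant, had 16.8, 9.30 and 12.5 in HE, 13.7, 12.1 and 22.4 in DB, and 17.9 and 13.7 in BB. Its groups overlapped, with 0.29 from HE to DB (95% interval −0.33 to 0.92, adjusted p = 0.846 by limma). Between DB and BB the value was 0.01, and it changed sign in some of the alternatives. Ccl5, which attracts T cells and monocytes, had 8.06, 10.99 and 7.02 in HE, 9.13, 11.3 and 10.5 in DB, and 7.01 and 6.44 in BB. Both BB libraries lay below every DB library, at −0.55 (SE 0.36, adjusted p = 0.998 by limma) on 8 to 14 reads per library.

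Among the 4 neutrophil-attracting CXC ligands, Cxcl3 had 24.9, 18.6 and 19.5 in HE, 30.1, 30.8 and 29.9 in DB, and 24.1 and 21.7 in BB. The DB libraries lay above all others and within 1 unit of each other, with 0.52 from HE (SE 0.21, adjusted p = 0.394 by limma). Cxcl1, Cxcl2 and Cxcl3 are near copies that lie in 1 cluster on chromosome 14 in RefSeq, and how reads shared by such copies were counted is not given in the sources used here. Values of the 3 interferon-induced ligands, which bind Cxcr3, differed in sign from HE to DB, at −0.36 for Cxcl9, 0.11 for Cxcl10 and 0.35 for Cxcl11, and 0 passed. Cxcl9 was lower in all 3 DB libraries (26.5, 29.1 and 26.2) than in the HE libraries (34.3, 37.2 and 34.3), with an adjusted p of 0.574 by limma.

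Of the 9 homeostatic ligands, Cxcl13 was the one that passed, and the median log2 fold change from HE to DB was 0.07. Cxcl12, a stromal ligand that retains blood stem cells in marrow, had 98.7, 71.9 and 90.5 in HE, 72.1, 82.6 and 80.7 in DB, and 86.4 and 103 in BB. The BB libraries lay above the DB libraries at 0.27 (SE 0.16, adjusted p = 0.998 by limma), while HE and DB overlapped (−0.14). Of the 3 transmembrane or C ligands, Cx3cl1 (fractalkine), which is made as a membrane protein of endothelium, had 49.0, 55.8 and 53.1 in HE, 56.6, 47.0 and 46.3 in DB, and 63.1 and 42.7 in BB. Its groups overlapped, with −0.08 from HE to DB and 0.06 from DB to BB.

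**Figure D3:**
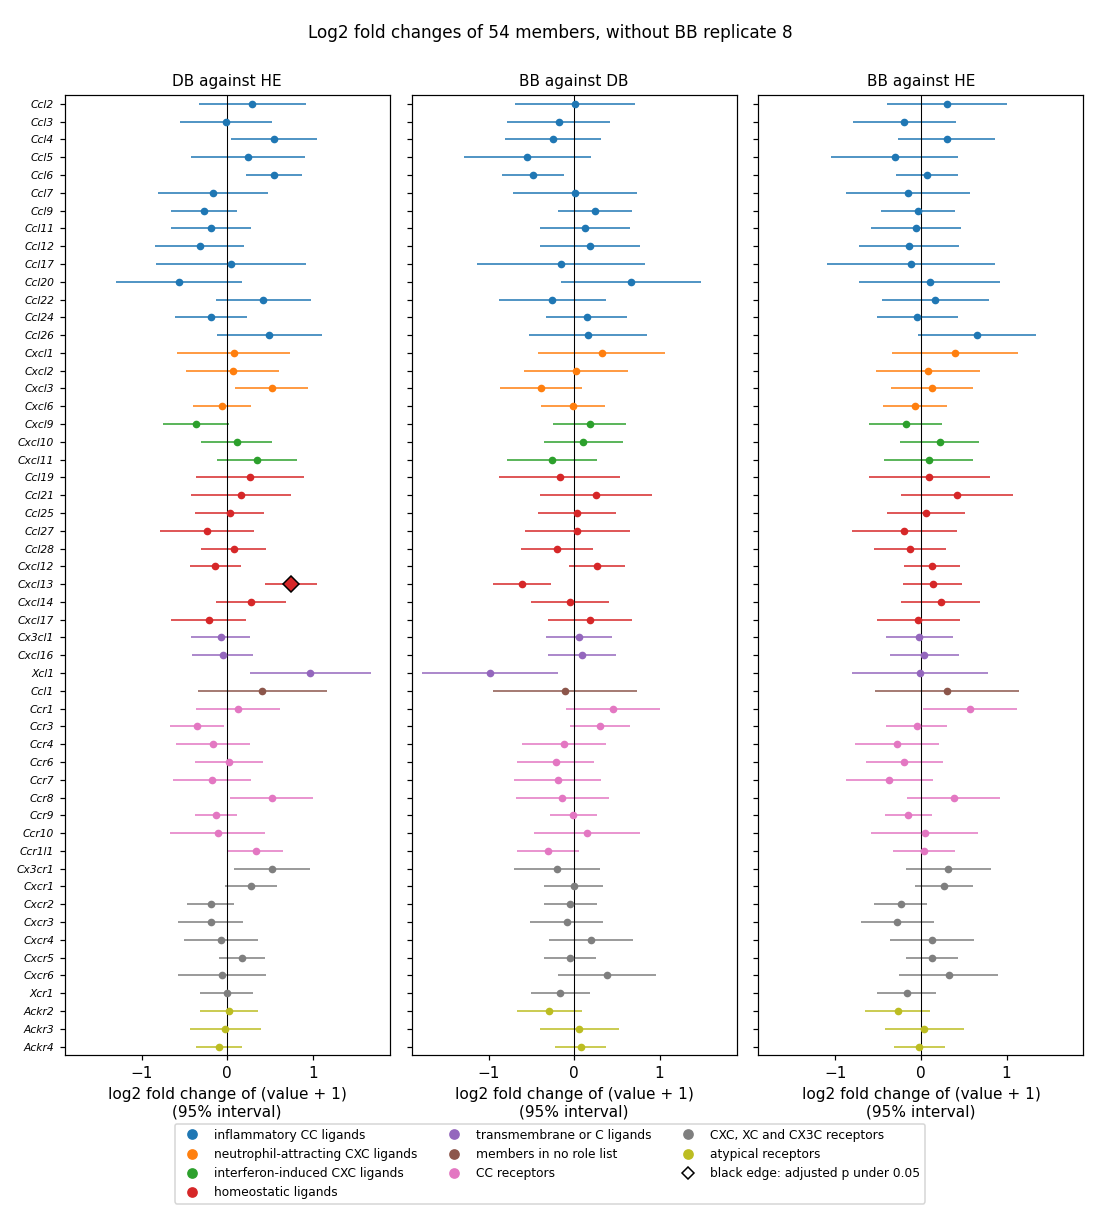
Log2 fold changes on the log2(value + 1) scale with 95% intervals from limma for 54 of the genes in the comparisons of DB with HE, BB with DB and BB with HE, coloured by role, with BB replicate 8 left out. The black-edged diamond marks the 1 gene with an adjusted p under 0.05, Cxcl13 in DB against HE (0.74).

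None of the 21 receptors passed limma's test in the comparison of DB with HE, where 3 were higher and 1 lower at an unadjusted p under 0.05, beside 4.41% and 5.02% of all genes. Cx3cr1, the fractalkine receptor of monocytes and macrophages, had 39.0, 21.1 and 43.7 in HE, 46.6, 45.3 and 52.3 in DB, and 40.5 and 42.7 in BB. The DB libraries lay above the rest, with 0.52 (SE 0.21, adjusted p = 0.419 by limma), while HE replicate 3 was the lowest library. Without HE replicate 3 the Cx3cr1 value was 0.21. The macrophage and monocyte markers (9 genes) summed to 2135 to 2313 in HE, 1815 to 2217 in DB and 1789 to 1824 in BB, and their part was not tested. Ccr8, found on regulatory and type 2 helper T cells, had 22.2, 14.4 and 14.8 in HE, 23.7, 26.7 and 23.2 in DB, and 21.8 and 22.6 in BB. Ccr8 had 0.52 from HE to DB (SE 0.23, adjusted p = 0.488 by limma), again with no overlap of HE and DB. The T cell markers (9 genes) summed to 588 to 662 in HE, 534 to 604 in DB and 476 to 533 in BB. This sum weighs genes by their values and holds Cd3g (mean 245 in HE, 214 in DB and 160 in BB). By log2 fold change 2 of the 9 were above 0 and 7 below from HE to DB (median −0.13). From DB to BB 5 were above 0 and 4 below (median 0.007). The part of T cells was not tested. Ccr1l1, a gene related to Ccr1, had 50.4, 50.7 and 73.4 in HE, 69.4, 76.1 and 71.8 in DB, and 59.2 and 58.0 in BB, so that HE and DB overlapped (0.33, adjusted p = 0.515 by limma).

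Ccr3, the eotaxin receptor of eosinophils, was the gene lower in DB at an unadjusted p under 0.05. It had 55.8, 60.0 and 65.5 in HE, 52.0, 39.7 and 50.1 in DB, and 60.0 and 56.4 in BB. All DB libraries lay below the others, at −0.35 from HE (SE 0.15, adjusted p = 0.46 by limma) and 0.30 from DB to BB (SE 0.17, adjusted p = 0.998 by limma). Its ligands Ccl11, Ccl24 and Ccl26 had −0.19, −0.19 and 0.49 from HE to DB, and none of these passed. Cxcr4, the signalling receptor of Cxcl12, had 27.5, 26.2 and 35.9 in HE, 24.6, 36.4 and 24.7 in DB, and 30.4 and 34.6 in BB. Ackr3, the atypical receptor of Cxcl12, had 28.2, 33.0 and 39.0 in HE, 42.0, 28.3 and 29.1 in DB, and 33.5 and 34.6 in BB. Both had groups that overlapped, at −0.07 and −0.02 from HE to DB, values that changed sign when single libraries were left out.

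Among the receptors with the most reads, Ccr6, the receptor of Ccl20 on B cells and Th17 cells, had 3181 reads over the 8 libraries and values of 290, 366 and 301 in HE, 448, 228 and 326 in DB, and 352 and 218 in BB. Its libraries spread widely within DB and BB, with a log2 fold change from HE to DB of 0.02 (95% interval −0.38 to 0.42). Ccr9, the receptor of Ccl25 on gut-homing lymphocytes, had 2295 reads and values of 212, 283 and 231 in HE, 221, 215 and 219 in DB, and 224 and 209 in BB. The interval of Ccr9 from DB to BB was −0.29 to 0.26, so a change of 1 on the log2 scale lay outside it. Cxcr2, a neutrophil receptor, had 1225 reads and values of 140, 119 and 134 in HE, 130, 94.7 and 122 in DB, and 117 and 106 in BB. From HE to BB it had −0.24 (SE 0.15, adjusted p = 0.825 by limma), with both BB libraries below all HE libraries. Its neighbour Cxcr1, a receptor of the same cells, had 61.1, 79.5 and 83.5 in HE, 79.4, 86.6 and 105 in DB, and 87.2 and 91.8 in BB. Here both BB libraries lay above the HE libraries, at 0.27 (SE 0.16, adjusted p = 0.818 by limma). The neutrophil and mast cell markers (8 genes) summed to 557 to 599 in HE, 500 to 563 in DB and 518 to 521 in BB, with S100a9 lower in DB at −0.69 (adjusted p = 0.00563 by limma). The others were not called, among them Kit (0.29) and Mpo (0.09) above 0 and Cpa3 (mean 40.7 in HE and 34.5 in DB) below. Of the 8 markers, 3 were above 0 and 5 below from HE to DB, with a median of −0.11. The part of these cells was not tested.

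The second question was what the extract changed in diabetic rats. Between BB and DB, limma called 0 of 32371 genes and 0 of the 55. At an unadjusted p under 0.05 there were 1603 genes (4.95%), and of the 55 genes 3 (5.45%), Cxcl13, Ccl6 and Xcl1, which were all lower in BB (2.84% of all genes were lower and 2.11% higher at this p). The same DB libraries serve in this comparison and in that of DB with HE. A rise from HE to DB and a fall from DB to BB are thus not independent results. On the recovered reads edgeR called 1 gene (0.00368%) and DESeq2 called 2 genes, with 0 of the 55 in each. Values of 17 of the 55 genes (30.9%) did not overlap between BB and DB, beside 19.6% of all genes. Of these, 11 were lower in BB (20%, beside 10.5% of all genes) and 6 higher (10.9%, beside 9.04%). The 6 were Ccl20, Cxcl12, Cxcl17, Ccr1, Ccr3 and Ackr4. The median log2 fold change of the 55 genes was −0.01, with 26 above 0 (47.3%, beside 49.4% of all genes). The standard error of a single gene's log2 fold change had a median of 0.23 and reached 0.47, which sets the size of change that these 5 libraries could resolve.

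The third comparison set BB against HE. Limma called 62 genes (0.192%), of which 0 were among the 55. At an unadjusted p under 0.05 there was 1 of the 55, Ccr1, which was higher in BB, beside 6.86% of all genes (2.83% higher and 4.03% lower). EdgeR called 67 genes (0.246%) and DESeq2 43, again with 0 of the 55. Values of 11 of the 55 genes (20%) did not overlap, beside 22.1% of all genes, with 6 higher (10.3% of all genes) and 5 lower (11.9% of all genes). The median log2 fold change of the 55 was 0.04, and 29 were above 0 (52.7%, beside 49.9% of all genes). Ccl26, an eotaxin, had 10.8, 6.76 and 10.2 in HE, 12.8, 11.3 and 15.7 in DB, and 17.1 and 12.9 in BB. Its HE libraries lay below all others, with 0.66 from HE to BB (SE 0.33, adjusted p = 0.754 by limma). Ccr7, which guides dendritic cells and T cells to lymph nodes, had 22.2, 31.3 and 38.2 in HE, 27.4, 25.1 and 26.2 in DB, and 24.9 and 20.9 in BB. HE and BB overlapped for Ccr7, at −0.37 (SE 0.24, adjusted p = 0.839 by limma).

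Genes that carry the chemokine signal inside the cell were set beside the family. Of 51 such genes measured (G protein subunits, arrestins, kinases and regulators of small GTPases), limma called 1 from HE to DB, Bcar1, an adaptor of cell adhesion and migration, which rose by 0.60 (SE 0.14, adjusted p = 0.0457). This was 1 of 51 beside 0.677% of all genes. At an unadjusted p under 0.05, 6 were higher and 3 lower (4.41% and 5.02% of all genes), and their median was 0.01. Between BB and DB and between BB and HE, 0 of 51 were called, with 4 and 3 at an unadjusted p under 0.05 (4.95% and 6.86% of all genes). Of 6 related genes whose symbols the rule does not take (Pf4, Ppbp, Ccrl2, Mif, Cmklr1 and Rarres2), 0 were called in any comparison by limma. At an unadjusted p under 0.05, 1 was lower from HE to DB, beside 5.02% of all genes. From DB to BB 1 was lower, beside 2.84% of all genes, namely Pf4 on 5 to 15 reads per library.

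BB replicate 8 held 487 reads of the 55 genes, against 2991 to 3669 in each of the other libraries. Of the 55, 19 had 0 reads there, 16 had 1 read, 9 had 2 reads and 11 had at least 3. A gene at 0 in this library, such as Cxcl13, Xcl1, Ccr9 or Cx3cr1, has an upper limit of 43.9, the value of 3 reads, from counting error alone. By the deposited size factors the limit lies below the lowest other library for Ccr9 (209) and Cxcl13 (50.4) and above the highest for Xcl1 (19.2). Cxcr5 (239 reads), Cxcl2 and Ackr3 (61 reads each), Ccl24 (36 reads) and Cxcl12 (27 reads) had values above every other library by the deposited size factors. The direction turned when reads were set against all reads of the library, a scaling chosen after seeing the data: Cxcr5 then had 19.5 reads per 1000000 in BB replicate 8 and 31.0 to 40.9 elsewhere, Cxcl2 had 4.97 and 5.93 to 11.8, and Ackr3 had 4.97 and 10.9 to 16.6. All reads include those of the top 10 genes, 76.5% in BB replicate 8, and their part in this turn was not tested. In unscaled reads Cxcr5 (239 against 91 to 138 elsewhere), Cxcl2 (61 against 20 to 39) and Ackr3 (61 against 35 to 50) were above. Ccl24 (36 against 45 to 78) and Cxcl12 (27 against 79 to 147) were below. By the size factors Cxcr5 had a value of 3497 in BB replicate 8, against 73.9 to 103 elsewhere. Cxcl2, a neutrophil attractant, had 893, against 14.9 to 30.0 elsewhere. By the size factors, dendritic cell markers summed to 9717 in this library, of which Clec9a gave 9571, and Adipoq was at 0. Clec9a had 654 of 12267084 reads there, against 133 to 318 reads in the other libraries, whose depth was 2771967 to 3542749. With this library in the fit, the median log2 fold change of the 55 genes from DB to BB was −0.44, beside −0.51 for all genes, and 0 of the 55 were called in any comparison by limma.

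**Figure D4:**
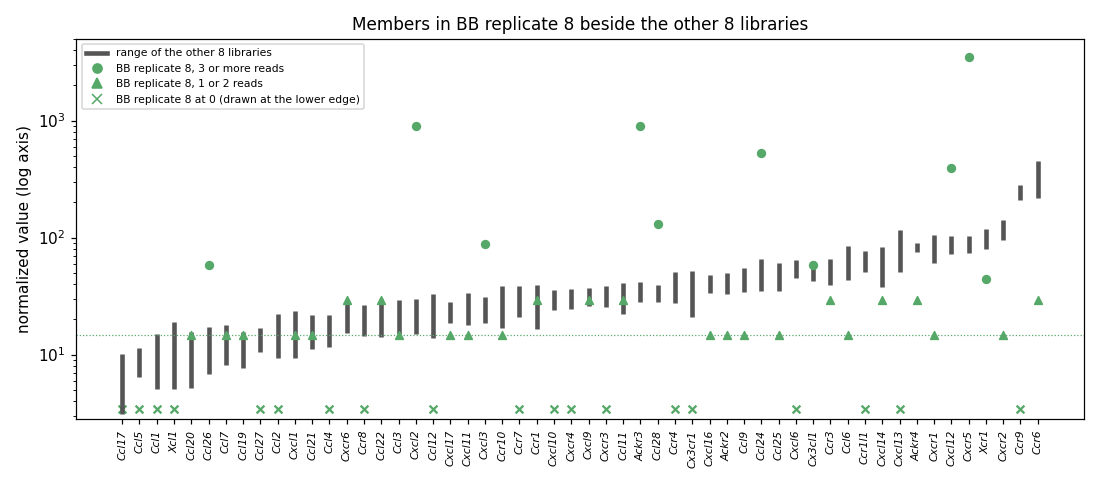
Normalized values (log axis) of 54 of the genes, ordered by mean, with grey bars for the range of the other 8 libraries and green marks for BB replicate 8. The dotted line is the value of 1 read in that library (14.6), and crosses are the 19 genes at 0 (drawn at the lower edge). The circles far above the bars, placed by the deposited size factors, are Cxcr5, Cxcl2, Ackr3, Ccl24 and Cxcl12. As reads per 1000000 of all reads, these genes lay below every other library.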

How the data were processed

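RNA of adipose tissue (retroperitoneal per the study's methods) was sequenced in 9 libraries. The authors deposited a normalized signal for each gene, obtained from its reads with 1 size factor for the whole library. Multiplying by that factor gave whole reads for 100% of the values (within 0.1 reads). What aligner, counter, annotation and strand setting were used was not given in the sources used here. Builds named by the submitters' processing notes are of mouse (GRCm38, mm10). Of the 32883 genes listed, 25 carry a date as a name, and 1194 have the same reads as another gene, with 0 of the 55 among them. Depth was 2771967 to 3542749 reads, and 12267084 in BB replicate 8.

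Groups were compared in limma 3.58.1 (R 4.3.3) with a trend on log2(value + 1), a scale that understates the change of low genes, in 1 fit of 8 libraries without covariates (5 residual degrees of freedom). Genes needed a mean value of 1 or more in some group. P-values were adjusted by Benjamini-Hochberg over all genes tested. The plan named edgeR for whole counts, and limma was used because the deposited values are normalized. Scripts were tested on simulated data. The alternatives were all 9 libraries, only the groups compared, leaving out each library, a pseudocount of 0.1, no filter, a mean of at least 10, total-count, upper-quartile and TMM scaling, edgeR 4.0.16, DESeq2 1.42.0 and limma-voom on recovered reads, a linear model per gene, and genes with the same reads kept once. EdgeR and DESeq2 on all 9 libraries, and reads per 1000000 reads in BB replicate 8, were chosen after seeing the data.

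The 55 genes, the lists and the rule for named genes were chosen with earlier results of these data known. Values were given for textbook pairs of adipose inflammation (Ccl2, Ccl5, Cxcl12, Cxcr4, Ackr3, Cx3cl1, Cx3cr1), for genes with an adjusted p under 0.05 or among the 5 smallest p-values in a comparison, for the 6 with the most reads, and for those with at least 3 reads in BB replicate 8 and a value above every other library. Other genes were named after their values were seen. Ccr2 and Cxcl5 are not analysed here, and 1 of the 55 genes is counted but not reported by name. Promoter sequences are from RefSeq (GRCr8), with 42 of the 55 genes matched by symbol.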

Additional observations from a re-analysis of the deposited data

Results flagged for a closer look

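In BB replicate 8, the library left out of the comparisons, 8 genes had at least 3 reads and a value above every other library by the deposited size factors. Cxcr5 had 3497 (239 reads), which is 33.9-fold above the highest other library. Cxcl2 had 892.7 (61 reads, 29.8-fold) and Ackr3 also had 892.7 (61 reads, 21.2-fold). Ccl24 had 526.8 (36 reads, 7.99-fold) and Cxcl12 had 395.1 (27 reads, 3.83-fold). Smaller read numbers lay behind Ccl28 with 131.7 (9 reads, 3.33-fold), Cxcl3 with 87.8 (6 reads, 2.85-fold) and Ccl26 with 58.54 (4 reads, 3.42-fold). These values rest on the deposited size factor, under which 1 read is worth 14.6 in this library. As reads per 1000000 of all reads, 8 of the 8 genes lay below every other library, for example Cxcr5 with 19.5 against 31.0 to 40.9 and Cxcl12 with 2.20 against 27.4 to 43.1. All reads include those of the top 10 genes, which held 76.5% in this library. This is 1 library without a replicate, in which 47.4% of the genes had no reads, so these values were not tested.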

How the results depend on the processing

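Limits were set by depth and by the number of libraries. With 2 BB libraries the standard error of a log2 fold change was 0.13 to 0.47 over the 55 genes, and genes such as Ccl17, Xcl1 and Ccl5 rested on few reads. No paired analysis was possible, because the study placed its rats at random in separate groups and no label pairs the libraries.

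Adding BB replicate 8 lowered the number of genes called between DB and HE from 219 to 0 in limma, from 203 to 0 in edgeR and from 214 to 24 in DESeq2, and the number among the 55 from 1 to 0 in each. Between BB and HE the genes called fell from 62 to 0 in limma, from 67 to 0 in edgeR and from 43 to 15 in DESeq2. In limma the median log2 fold change of the 55 genes with that library was −0.44 from DB to BB and −0.48 from HE to BB, beside −0.51 for all genes in both. A linear model per gene without moderation called 0 genes in all 3 comparisons. Total-count scaling called 333 genes between DB and HE and 2 between BB and DB. Between BB and DB, upper-quartile scaling, TMM scaling, edgeR and keeping genes with the same reads once called 1 gene each, and DESeq2 called 2. Leaving out each of the 8 libraries in turn gave 59 to 420 genes between DB and HE, 0 to 19 between BB and DB and 26 to 76 between BB and HE, with 0 to 1 of the 55 called between DB and HE and 0 in the others.

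Of 32 log2 fold changes named, 24 kept their sign under all 23 alternatives, and 4 changed sign only when a library was left out. Several alternatives could not change a sign. Both other filters, only the groups compared, no moderation and genes with the same reads kept once leave the log2 fold change as it is. So does leaving out or adding a library of a group that is not compared. With all 9 libraries in limma, values from DB to BB turned to −0.0194 for Ccr3, −1.34 for Ccl2 and −1.49 for Cxcr4, and from HE to BB to −0.57 for Cxcr1. Ccl2 from DB to BB was also −0.0362 in edgeR, −0.0249 in DESeq2 and −0.0022 in limma-voom, and −0.0865 and −0.13 in edgeR and DESeq2 with all 9 libraries. Leaving out single libraries gave ranges across 0 from HE to DB for Cxcr4 (−0.25 to 0.0625) and Ackr3 (−0.20 to 0.0943), and from DB to BB for Ccl2 (−0.17 to 0.26), Ackr3 (−0.0388 to 0.24) and Cx3cl1 (−0.22 to 0.34). The cause was not tested. The 8 values of BB replicate 8 that lay above every other library by the size factors lay below every other library as reads per 1000000.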
